A study of Homo sapiens with 9 samples.

Results

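The genes described here encode cyclins and cyclin-dependent kinases (CDKs). They were chosen by name, as protein coding genes whose symbol was CCN with a letter and optional digits or CDK with digits and an optional letter, and 48 of the 51274 gene identifiers listed for either comparison met this rule. RNA was measured in wildtype HEK293T cells, an established human embryonic kidney line, crosslinked with 0.1% formaldehyde for 10 min. Each of 3 lysates was divided between an antibody against the nuclear poly(A) binding protein (PABPN) and one against the cytoplasmic poly(A) binding protein (PABPC), and RNA immunoprecipitation (RIP) was followed by total RNA sequencing with ribosomal RNA depleted. The 9 libraries comprised 3 per group (total RNA as input, PABPN RIP, PABPC RIP), and all groups share the line, the genotype and the crosslink.

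Poly(A) binding proteins coat the tail that is added to the 3′ end of most messages. Nuclear transcripts are bound chiefly by PABPN, and messages exported to the cytoplasm for translation chiefly by PABPC. A cyclin is the regulatory subunit that switches on a CDK. The cell-cycle cyclins (A, B, D and E) and kinases drive cells through division. Levels of many of these cyclins, and the activity of the kinases, change from phase to phase. The transcriptional cyclins and kinases phosphorylate the tail of RNA polymerase II or other parts of the transcription machinery. Members of the other families act in neurons, in cilia, in responses to DNA damage and at the plasma membrane, and the roles of several are less well known.

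Of the 48 members, 15 were placed in the cell-cycle class (10 cyclins and 5 kinases), 15 in the transcriptional class (7 cyclins and 8 kinases) and 18 in neither. The last 30 bases of the canonical transcript are shown for 6 members, because in that annotated transcript the tail would begin after the last of these bases. The 3′ ends in use in these cells were not mapped here, and other annotated transcripts can end elsewhere. The 6 members include CDK14, which had the lowest PABPC value of the members given below, and members of each class. The sequences run 5′ to 3′ on the gene's own strand of hg38, with transcript ends from GENCODE release 44, and capitals mark the polyadenylation signal AATAAA. The windows lie at chr5:69178216-69178245 (plus strand) for CCNB1, chr12:4305324-4305353 (plus) for CCND2, chr5:163444987-163445016 (plus) for CCNG1, chr5:87394274-87394303 (minus) for CCNH, chr1:1385711-1385740 (minus) for CCNL2 and chr7:91210561-91210590 (plus) for CDK14. All are exonic and end a 3′ untranslated region.
CCNB1: tggttAATAAAacaatactcaaatacaaaa
CCND2: atttggacAATAAActcaccttgacctaaa
CCNG1: atacctttcAATAAAgttaatgaaattcaa
CCNH: ctttatgtaaAATAAAccatcttcaaaaga
CCNL2: tattatgacataaagaaccatttaaggcca
CDK14: tatggAATAAAgtatagcagaatctccgta

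The letters AATAAA, searched on the sense strand, lay in these last 30 bases of 27 of the 48 members (56.3%), which was close to the 56.6% of 20027 protein coding genes with such an end. The variant ATTAAA without AATAAA was found in 7 members (14.6%), against 13.0% of all those genes. Of the 15 cell-cycle members, 10 held AATAAA and 2 held ATTAAA, and of the 15 transcriptional members, 7 and 3 did. CCNL2, printed above, held neither within this window.

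Values are log2 fold changes of RIP over input from the authors' DESeq2 comparisons, each with its standard error (SE) from 3 RIP and 3 input libraries. Group means are normalized read counts over the 3 libraries of a group, and since values per library were not analysed here, the spread between replicates enters through the SE. Reads in introns and exons were counted together, so a value covers unspliced and spliced RNA. A fold change is relative to the rest of the RNA in the same libraries, and in a bulk lysate fewer cells holding a message and less of it per cell cannot be told apart. A gene was called enriched above 0.5 and depleted below -0.5 on the log2 scale, with an adjusted p from DESeq2 of at most 0.01 and a mean over the 6 libraries above 50. The median SE over all genes above that mean was 0.137 for PABPN and 0.141 for PABPC, and the median log2 fold change of protein coding genes was -0.09 and 0.25. Of the 48 members, 46 passed the filter on the mean in both comparisons. CCNA1, a germ cell cyclin, had means of 10.2 and 9.48 and CCNP had 14.4 and 7.37, so neither could be called. CCNI2 in both comparisons and CCNO in that with PABPC had input means under 50 and passed through their higher RIP means.

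With PABPN, 8 of the 46 members were enriched and 8 were depleted, and the other 30 passed neither cut-off. Over all genes 17.5% were enriched and 14.6% depleted, and over protein coding genes alone the shares were 15.1% and 16.5%. With PABPC, 24 of the 46 were enriched and 11 depleted. The shares were 38.4% and 32.4% of all genes, and 41.2% and 27.9% of protein coding genes. When fold changes were set against the median of protein coding genes, the PABPC calls became 19 enriched and 14 depleted. For the direct difference between the RIPs, PABPN minus PABPC, a gene was called beyond 0.5 at an adjusted p of at most 0.01 in a two-sided normal test. The difference was called towards PABPN for 15 members and towards PABPC for 22. The shares of all genes were 36.1% and 33.4%, and of protein coding genes 30.6% and 37.8%.

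**Figure D1:**
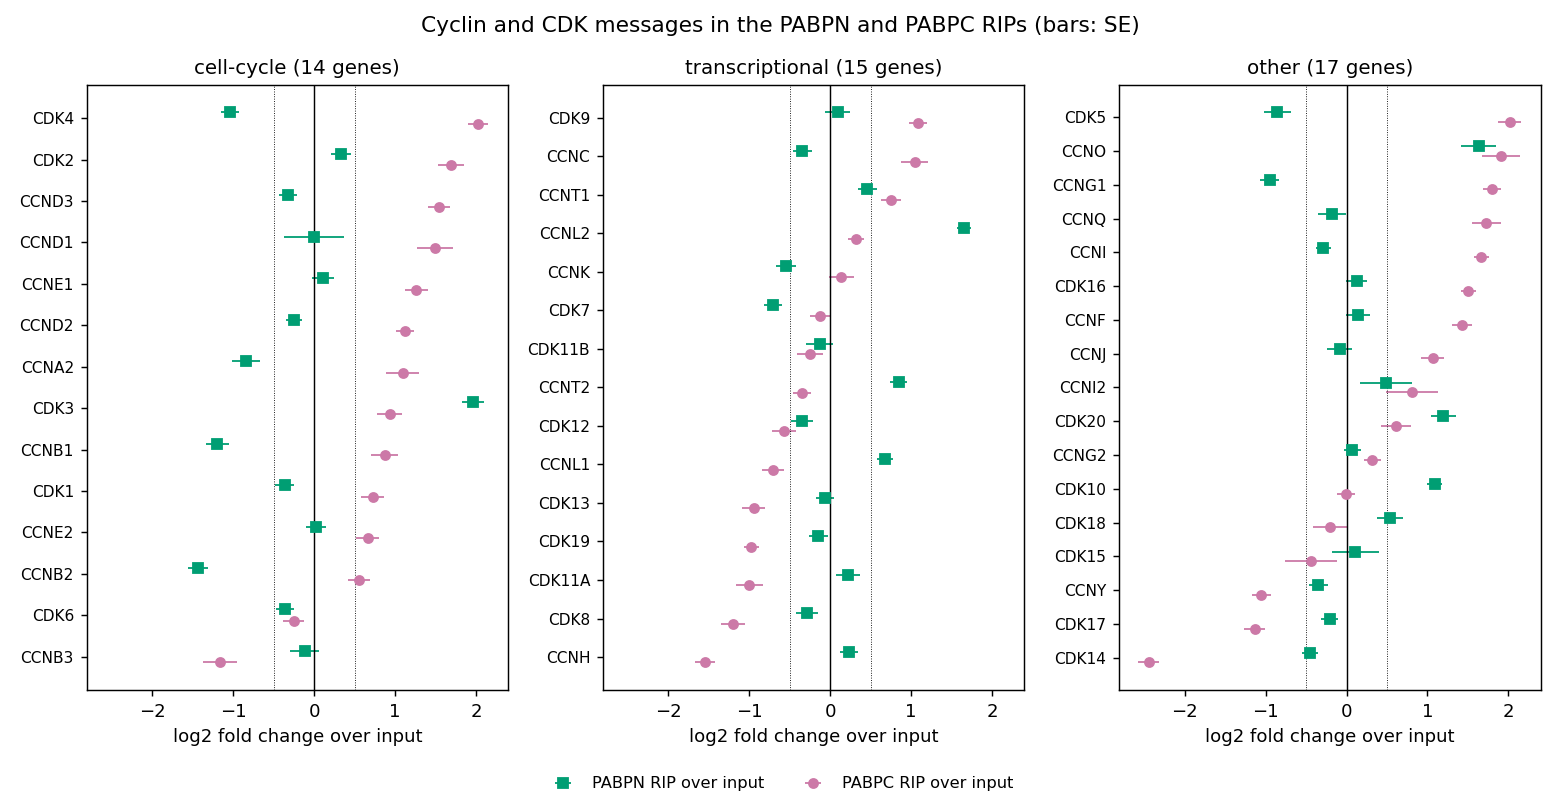
Log2 fold change of each RIP over input for the 46 members that passed the filter, in 3 panels by class and ordered by the PABPC value. Green squares are PABPN, pink circles are PABPC, bars are the SE and dotted lines mark 0.5 and -0.5. In the cell-cycle panel 12 of 14 circles were called enriched, and in the transcriptional panel 3 of 15 were.

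The mitotic cyclins were lower than input with PABPN and higher than input with PABPC. CCNB1, which activates CDK1 at entry into mitosis, had a mean of 5909 in input and 2580 in the PABPN RIP, and under the normalization of the other comparison 5057 in input and 9278 in the PABPC RIP. Its log2 fold changes were -1.20 ± 0.145 (SE, adjusted p = 4.29e-15 from DESeq2) and 0.88 ± 0.167 (adjusted p = 4.65e-07). The message was thus depleted from the PABPN RIP and enriched in the PABPC RIP. CCNB2, a second mitotic B-type cyclin, fell from 1982 to 734 with PABPN, the lowest PABPN value of the 46 members at -1.43 ± 0.126. With PABPC it went from 1696 to 2485, a log2 fold change of 0.55 ± 0.134 that was close to the cut-off and was not called after centring on protein coding genes (0.30). CCNA2, the cyclin of S and G2 phase, was depleted with PABPN (-0.84 ± 0.167) and enriched with PABPC (1.09 ± 0.201). The 3 messages differed between the RIPs by -2.07 (CCNB1), -1.98 (CCNB2) and -1.93 (CCNA2) on the log2 scale, all called towards PABPC. CCNB3, a B-type cyclin best known from meiosis, differed from them. It went from 196 to 87 with PABPC (-1.16 ± 0.211), was not called with PABPN (-0.12 ± 0.181), and its difference of 1.05 ± 0.278 was called towards PABPN.

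The G1 cyclins were enriched with PABPC and uncalled with PABPN. The D-type cyclins connect growth signals to CDK4 and CDK6. CCND3 had PABPC values of 843 in input and 2460 in RIP, a log2 fold change of 1.55 ± 0.136. For CCND1 the values were 3842 and 10813 (1.49 ± 0.225), and for CCND2, whose message ends in the sequence printed above, 9713 and 21202 (1.13 ± 0.113). All 3 were enriched in the PABPC RIP, and remained so after centring, where CCND2 had 0.87. With PABPN their values were -0.32 ± 0.114, -0.0017 ± 0.371 and -0.25 ± 0.0991, and that of CCND1 became 0.085 after centring. The SE of CCND1 with PABPN was larger than that of 99.6% of genes with a mean above 1000. The E-type cyclins, which activate CDK2 at the start of S phase, were also enriched with PABPC. CCNE1 had a log2 fold change of 1.27 ± 0.147 and CCNE2 one of 0.66 ± 0.139, which was not called after centring (0.41). With PABPN they had 0.11 ± 0.135 and 0.027 ± 0.125.

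Among the cell-cycle kinases, CDK4 had the lowest difference of all members. CDK4, the partner of D-type cyclins, had a mean of 4655 in input and 2261 in the PABPN RIP, and of 3982 in input and 16168 in the PABPC RIP. It was depleted with PABPN (-1.04 ± 0.114, adjusted p = 1.71e-18 from DESeq2) and enriched with PABPC (2.02 ± 0.125, adjusted p = 2.31e-57). The difference was -3.06 ± 0.169, or 8.36-fold in favour of PABPC. CDK6 binds the same cyclins, yet it was called with neither protein, at -0.36 ± 0.107 and -0.25 ± 0.132 (-0.51 and called after centring), and its difference was -0.11 ± 0.169. CDK1, the mitotic kinase, was enriched with PABPC (0.72 ± 0.143, or 0.47 and uncalled after centring). With PABPN it had -0.36 ± 0.115, short of the cut-off. CDK2, the kinase of S phase, went from 1790 to 5765 with PABPC (1.69 ± 0.161) and had 0.33 ± 0.127 with PABPN. CDK3, a kinase linked to the exit from quiescence, stood apart from the other 4 kinases. It was enriched with both proteins, from 224 to 875 with PABPN (1.97 ± 0.132) and from 192 to 367 with PABPC (0.94 ± 0.156), and its PABPN value was the highest of the 46 members.

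Of the 14 cell-cycle members that passed the filter, 1 was enriched and 4 depleted with PABPN, and 12 were enriched and 1 depleted with PABPC, beside 15.1% and 16.5% of protein coding genes with PABPN and 41.2% and 27.9% with PABPC. The median log2 fold change was -0.29 with PABPN and 1.01 with PABPC, beside -0.09 and 0.24 over 12452 protein coding genes. The median difference was -1.37, with a range from -3.06 to 1.05. For the difference, 11 of the 14 were called towards PABPC, beside 37.8% of protein coding genes. CCNB3 and CDK3 were called towards PABPN, beside 30.6% of protein coding genes, and CDK6 in neither direction.

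The transcriptional cyclins gave more varied values. CCNL2, a cyclin of the CDK11 kinases that is found in nuclear speckles, rose from 4817 in input to 15140 in the PABPN RIP, while its means were 4119 and 5140 in the PABPC comparison. Its log2 fold change was 1.65 ± 0.0835 with PABPN (adjusted p = 1.15e-84 from DESeq2) and 0.32 ± 0.0952 with PABPC. The paralogue CCNL1 was enriched with PABPN, from 3126 to 4997 (0.68 ± 0.101), and depleted with PABPC, from 2674 to 1636 (-0.71 ± 0.133). The 2 L-type cyclins thus had nearly equal differences between the RIPs, 1.39 ± 0.168 for CCNL1 and 1.33 ± 0.127 for CCNL2. CCNT2, a cyclin of the elongation factor P-TEFb, was enriched with PABPN (0.84 ± 0.105) and had -0.35 ± 0.116 with PABPC, which passed the depletion cut-off after centring (-0.60). CCNT1, the other P-TEFb cyclin, was enriched with PABPC (0.75 ± 0.124, or 0.499 and uncalled after centring). With PABPN it had 0.46 ± 0.117, which was called after centring (0.54).

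CCNH, the cyclin of the CDK-activating kinase in the transcription factor TFIIH, had the lowest PABPC value of both classes. Its mean was 7805 in input and 2677 in the PABPC RIP (-1.54 ± 0.123), and 9124 and 10684 in the PABPN comparison (0.23 ± 0.113). The difference of 1.77 ± 0.167 was the highest of the 2 classes. CCNC, the cyclin of the Mediator kinases, showed the opposite direction, with 1.04 ± 0.166 with PABPC, -0.34 ± 0.122 with PABPN and a difference of -1.39 ± 0.206. CCNK, the partner of CDK12 and CDK13, was depleted with PABPN at -0.55 ± 0.123, which was no longer called after centring (-0.46). With PABPC it had 0.13 ± 0.156, or -0.12 after centring.

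The transcriptional kinases were mostly lower than input with PABPC. CDK8, a Mediator kinase, went from 5422 to 2356 (-1.20 ± 0.150), and its paralogue CDK19 from 4672 to 2379 (-0.97 ± 0.0966). CDK13, which phosphorylates elongating polymerase, went from 7034 to 3658 (-0.94 ± 0.142), and the related CDK12 from 9128 to 6147 (-0.57 ± 0.152). All 4 were depleted with PABPC, and none was called with PABPN, where their values were -0.28, -0.15, -0.07 (0.018 after centring for CDK13) and -0.35. CDK11A was depleted with PABPC, from 604 to 302 (adjusted p = 6.16e-09 from DESeq2), whereas its near-identical copy CDK11B had a log2 fold change of -0.26 ± 0.161, or -0.51 and called after centring. Because reads can be shared or lost between the copies, each value is uncertain. CDK9, the kinase of P-TEFb, was the kinase of this class that was enriched with PABPC (1.09 ± 0.114), with 0.09 ± 0.152 with PABPN. CDK7, the kinase of TFIIH, was the one depleted with PABPN, from 1272 to 779 (-0.71 ± 0.113), and had -0.12 ± 0.120 with PABPC.

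**Figure D2:**
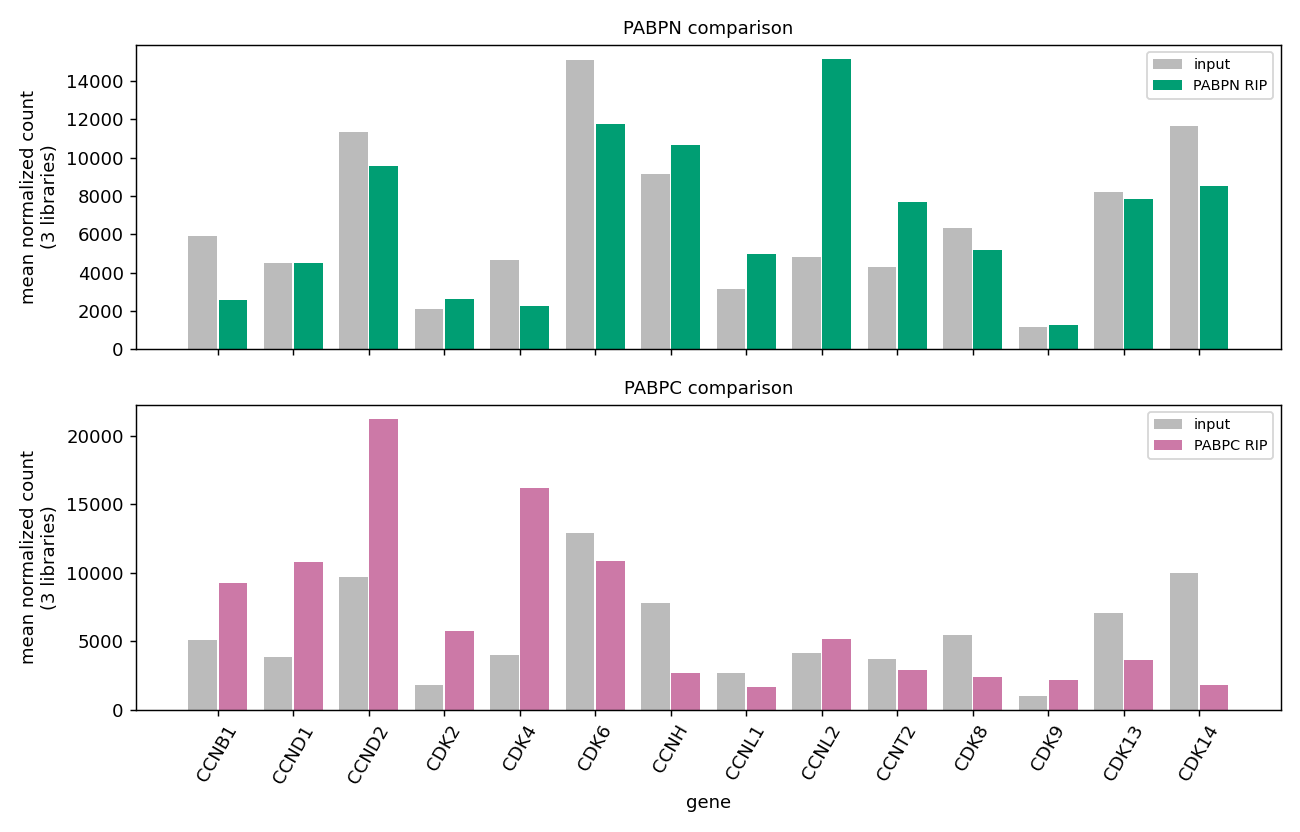
Mean normalized read counts of 14 members chosen after their values were seen, as bars on a linear axis from 0, for input (grey) and RIP (green for PABPN above, pink for PABPC below). CDK4 and CCNB1 lay below input in the PABPN RIP and above it in the PABPC RIP, and CCNL2 lay above input in the PABPN RIP. The panels carry no error bars, and the error of each change is the SE given with its fold change.

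Of the 15 transcriptional members, 3 were enriched and 2 depleted with PABPN, and 3 were enriched and 7 depleted with PABPC. The PABPN counts were near the shares of protein coding genes, 15.1% and 16.5%, and the PABPC counts stood beside 41.2% and 27.9%. The median log2 fold change was -0.07 with PABPN (0.018 after centring) and -0.35 with PABPC (-0.60 after centring). The median difference was 0.83, with a range from -1.39 to 1.77, beside -1.37 for the cell-cycle class and -0.12 over protein coding genes. The difference was called towards PABPN for 8 members and towards PABPC for 4, namely CCNC, CCNK, CDK7 and CDK9. The shares of protein coding genes were 30.6% and 37.8%. The 7 cyclins had medians of 0.46 with PABPN and 0.13 with PABPC (-0.12 after centring, the value of CCNK), and the 8 kinases -0.14 and -0.76. The enriched PABPN calls of the class, CCNL1, CCNL2 and CCNT2, were all cyclins, and 5 of its 7 depleted PABPC calls were kinases. In the cell-cycle class, cyclins and kinases had medians of -0.25 and -0.36 with PABPN and of 1.09 and 0.94 with PABPC. The ranges of the 2 classes overlapped, and the classes were described without a test because their members were chosen with earlier results known.

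**Figure D3:**
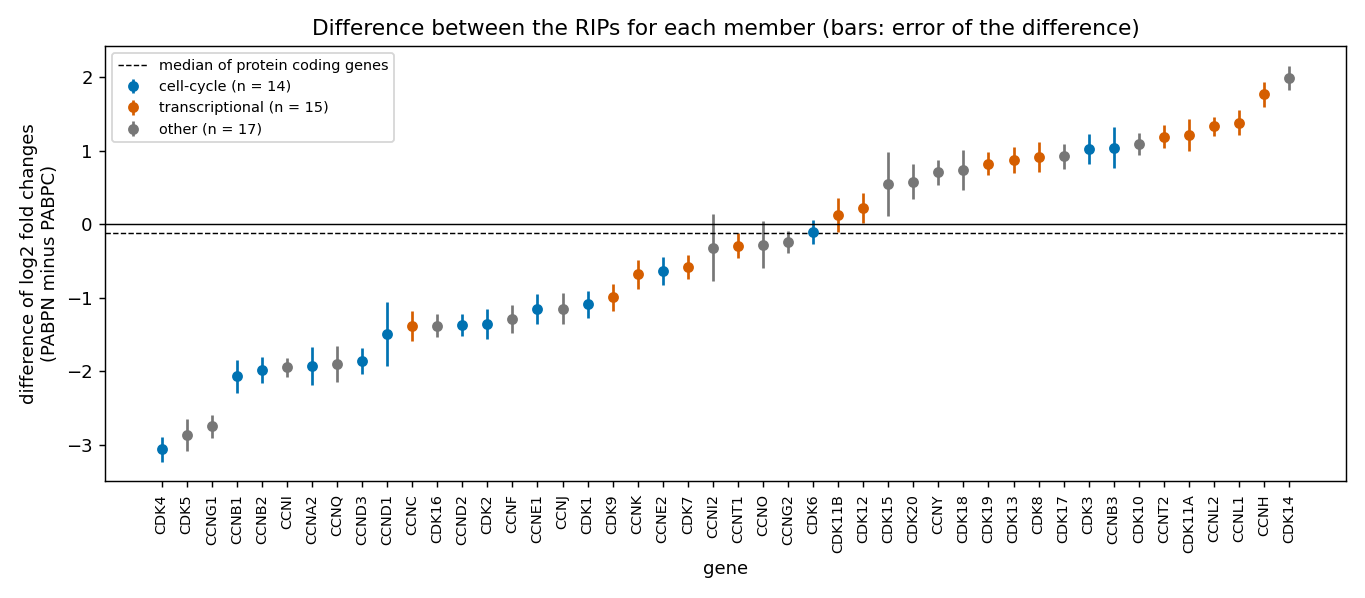
Difference of the log2 fold changes, PABPN minus PABPC, for the 46 members, with bars for the error of the difference, colours for the class and a dashed line at the median of protein coding genes (-0.12). Values above 0 are higher with PABPN. Cell-cycle members lay mostly between -3.06 and -0.63, and transcriptional members spread from -1.39 to 1.77.

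Of the 17 other members that passed the filter, 4 were enriched and 2 depleted with PABPN, and 9 were enriched and 3 depleted with PABPC, beside the same shares of 15.1%, 16.5%, 41.2% and 27.9% of protein coding genes. The median log2 fold change of these members was 0.07 with PABPN and 0.81 with PABPC, and the median difference was -0.28. The 9 cyclins among them had medians of -0.09 with PABPN and 1.43 with PABPC and a median difference of -1.15. For the 8 kinases these were 0.12, -0.10 and 0.66. CDK14, which is tethered to the membrane by CCNY and takes part in Wnt signalling, had the highest difference of all members. Its mean was 9979 in input and 1833 in the PABPC RIP, a log2 fold change of -2.44 ± 0.130 that was the lowest PABPC value of the 46. With PABPN it had 11666 and 8536 (-0.45 ± 0.103), short of the cut-off, and the difference was 1.99 ± 0.166. Its cyclin CCNY was also depleted with PABPC (-1.05 ± 0.117). CDK5, a kinase best known from neurons, showed the reverse pattern, with -0.85 ± 0.163 with PABPN, 2.02 ± 0.143 with PABPC and a difference of -2.87 ± 0.217. CCNG1, a target of p53, was likewise depleted with PABPN, from 4594 to 2380 (-0.95 ± 0.114), and enriched with PABPC, from 3929 to 13675 (1.80 ± 0.107). CCNO, needed for multiciliated cells, was enriched with both, from 51 to 159 with PABPN (1.63 ± 0.215) and from 44 to 165 with PABPC (1.91 ± 0.231). With PABPC, CCNO passed the filter on the mean only through its higher RIP mean, and it is counted among the 9 enriched. CDK10, CDK18 and CDK20 were the other members of this class enriched with PABPN, at 1.09 ± 0.0978, 0.54 ± 0.165 and 1.20 ± 0.156. With PABPC, CDK10 and CDK18 were not called, at -0.0073 ± 0.109 and -0.20 ± 0.209, and their differences were called towards PABPN. CDK20 was also enriched with PABPC (0.61 ± 0.182, or 0.36 and uncalled after centring), and its difference of 0.58 ± 0.240 was not called.

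Paralogues were compared pair by pair within each comparison, as the difference of their log2 fold changes with its 95% interval. Of 28 intervals from 14 pairs, 15 lay clear of 0, with no adjustment over the pairs. Some genes entered more than 1 pair. The share over pairs of unrelated genes was not computed, so this count cannot be read as a trait of paralogues. With PABPC, CDK4 lay 2.28 above CDK6 (1.92 to 2.63), CDK16 lay 2.64 above CDK17 (2.33 to 2.96), and CCNG1 lay 1.48 above CCNG2 (1.19 to 1.78). CCNT1 lay 1.10 above CCNT2 with PABPC (0.77 to 1.43), and CCNT1 minus CCNT2 was -0.39 with PABPN. These pairs therefore held messages of related proteins with different PABPC values. Other pairs gave intervals that included 0. CDK8 minus CDK19 was -0.23 with PABPC (-0.58 to 0.12), CDK12 minus CDK13 was 0.37 (-0.03 to 0.78), and CCNB1 minus CCNB2 was 0.32 (-0.10 to 0.74). Cyclins and kinases that bind each other were compared in the same way, and 14 of 20 intervals from 10 pairs lay clear of 0. Here too, no share over unrelated pairs was computed. CDK7 lay 1.42 above its cyclin CCNH with PABPC, whereas CDK8 minus its cyclin CCNC was -2.25 and CDK19 minus CCNC was -2.02.

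Intron length was set beside the fold changes. The summed intron length was taken as the span of the annotated gene less every base within an annotated exon. Annotated transcripts that reach far beyond the canonical one lengthen it. For CCNH the gene span starts at chr5:87318416, while the printed 3′ end starts at chr5:87394274. The order of members by intron length depends on this measure. Over the 46 members the rank correlation (Spearman) of summed intron length with the PABPC value was -0.673, beside -0.763 over 12443 protein coding genes with an annotation. With the PABPN value it was -0.268, beside -0.150. Other lengths also followed the PABPC value of members, with -0.553 for coding length, -0.531 for exonic length and -0.600 for exon number. Over protein coding genes these were -0.530, -0.479 and -0.490. Intron length against the difference between the RIPs gave 0.384 over members and 0.632 over protein coding genes. Within the cell-cycle class intron length against the difference gave 0.275, and within the transcriptional class 0.029. Against the PABPC value it gave -0.565 within the cell-cycle class and -0.546 within the transcriptional class. Against the PABPN value the correlations were -0.266 and -0.482. Genes are not independent replicates, the points share libraries, and intronic reads enter the counts, so these are descriptions. The 15 members with the shortest introns (0.72 to 8.68 kb in sum) had a median PABPC value of 1.09, with 12 enriched and 1 depleted. Of 2226 protein coding genes in the same range of intron length, 84.0% were enriched and 2.07% depleted with PABPC. The 15 with the longest (40.2 to 737 kb) had a median of -0.94, with 1 enriched, CCND3, and 9 depleted, and of 5264 protein coding genes in that range 9.92% were enriched and 55.9% depleted. In both ranges the members' counts were near these shares. The median summed intron length was 11.2 kb in the cell-cycle class and 32.0 kb in the transcriptional class. The median coding length was 946.5 and 1578 bases. Of the 6 cell-cycle members with the shortest introns, 5 were called towards PABPC and CDK3 towards PABPN, while of the 3 transcriptional members there, CCNL1 and CCNL2 were called towards PABPN and CDK9 towards PABPC. Between 8.84 and 32.0 kb, all 5 cell-cycle members were called towards PABPC. Of the 5 transcriptional members in that range, 2 were called towards PABPN, 1 towards PABPC and 2 in neither direction. Shares of protein coding genes for the difference were not computed by intron length. CCNB3 and CDK6, which were not enriched with PABPC, belonged to the members with the longest introns, as did 7 transcriptional members, of which 5 were depleted with PABPC. The part of intron length or coding length in the difference between the classes was not tested. By GENCODE release 44, CCNL1 had 16 annotated transcripts with a retained intron, CDK18 had 14, CDK11A 12, CCNL2 9 and CDK10 8, and over the members the rank correlation of that count with the PABPN value was 0.175, beside 0.039 over protein coding genes.

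**Figure D4:**
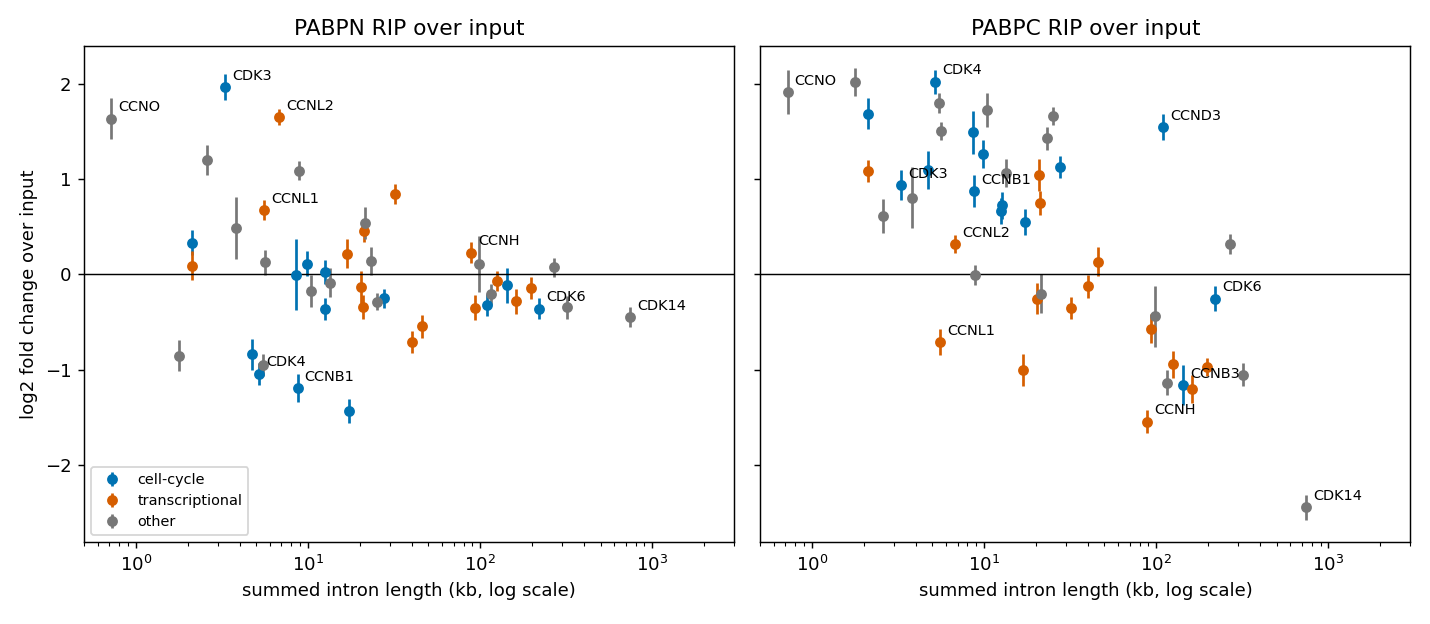
Summed intron length (annotated gene span less exons) in kb on a log scale against the log2 fold change of each RIP over input. The 46 members are coloured by class, with bars for the SE. The median PABPC value was 1.09 in the 15 members with the shortest introns and -0.94 in the 15 with the longest, and CCND3 stood above the rest of the latter.

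Partners of the cyclins and kinases were read from 2 lists. Of 36 cell-cycle partners (inhibitors, the retinoblastoma and E2F families, phosphatases and degradation factors), 3 were enriched and 5 depleted with PABPN, and 22 were enriched and 5 depleted with PABPC, with median log2 fold changes of -0.19 and 0.77. The shares of protein coding genes were 15.1% and 16.5% with PABPN and 41.2% and 27.9% with PABPC. CDC20, which activates the anaphase-promoting complex, was depleted with PABPN (-1.32) and enriched with PABPC (1.27), and the CDK4 and CDK6 inhibitor CDKN2C had a difference of -2.44. At the other end, FBXW7, which directs cyclin E to degradation, had a difference of 2.17 and the transcription factor E2F3 one of 1.31. Of 31 transcription partners, 3 were enriched and 3 depleted with PABPN, and 10 were enriched and 8 depleted with PABPC, with medians of -0.07 and 0.21, and these counts were near or below the same shares. The elongation factor gene SUPT4H1 had a difference of -2.94 and NELFE, of the pausing factor NELF, one of -1.97, while MLLT3, of the super elongation complex, had 2.74 and the Mediator gene MED12L 2.62. The median difference was -0.75 for the cell-cycle partners and -0.06 for the transcription partners, beside -0.12 over protein coding genes.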

How the data were processed

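HEK293T lysates were divided between inputs and RIPs as described above, with 3 biological replicates per group. The authors aligned single-end stranded reads of 75 nt with STAR to hg38, counted introns and exons together with featureCounts 2.0.2 on a GENCODE and NCBI annotation freed of overlapping stretches, and compared each RIP with input in DESeq2. Genes with transcription running in from upstream were removed by the authors. Whether counting used strand was not given in the sources used here.

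The signal column deposited by the authors, baseMean, is the mean of normalized read counts over 6 libraries. The authors' log2 columns give the RIP over input fold change with its SE, the score deposited is the Wald statistic, and the p-value columns deposited hold the Wald p and its Benjamini-Hochberg adjusted value. These comparison columns are the measurements used here, with the length column deposited beside them. Values and read depth per library were not analysed here, so the SE gives the precision. Between the 2 tables, input means were offset by 0.226 on the log2 scale (SD 0.00229 over 14581 genes), a difference of scale alone.

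Group means were obtained from baseMean and fold change. The difference between RIPs was tested over 14581 genes, its error being the root of the summed squared SEs, with Benjamini-Hochberg adjustment. The shared input makes this error too large. The test was tried on simulated data. Python 3.11.15, pandas 2.3.3, numpy 2.4.6, scipy 1.17.1 and matplotlib 3.10.9 were used, with gene models from GENCODE release 44. Members, classes, lists and tests were chosen with earlier results of these data known. Named were all members of the 2 main classes, the highest and lowest other members and the 2 highest and lowest differences of each list. CDK10, CDK18, CDK20, CCNY and the paralogue pairs of other members were added after their values were seen.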

Additional observations from a re-analysis of the deposited data

How the results depend on the processing

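No paired analysis was possible because the tables hold no values per library, and for the same reason no replicate could be left out. Of 723 recomputed values of single genes, 661 kept their direction and their side of the threshold. Among these, 92 without a filter on the mean and 84 with a minimum mean of 200 could not change. Both settings left the fold change, adjusted p and cut-offs of these genes as they were, so these values are no check. Most other settings were checks in 1 direction only. A log2 cut-off of 1, a difference beyond 1 and a Wald test against a change of 0.5 could only end calls. An adjusted p of 0.05, or an error of the difference made smaller for the shared input, could only add calls. Direction could change only under centring. The number of kept values is thus no measure of robustness. With a log2 cut-off of 1 the members enriched and depleted with PABPN fell from 8 and 8 to 5 and 3, and those enriched and depleted with PABPC from 24 and 11 to 17 and 7. Members with a difference beyond 1 numbered 9 towards PABPN and 18 towards PABPC, against 15 and 22 beyond 0.5. A Wald test against a change of 0.5 left 5 enriched and 4 depleted with PABPN and 17 and 9 with PABPC. That test ended the PABPN calls of CCNA2, CCNK, CCNL1, CCNT2, CDK5, CDK7 and CDK18 and the PABPC calls of CCNB1, CCNB2, CCNE2, CCNL1, CCNT1, CDK1, CDK3, CDK12 and CDK20. Shares over all genes were not computed with that test or at the cut-offs of 1. The members' counts there cannot be set beside genes at large. Centring on protein coding genes moved the cell-cycle PABPC median to 0.76, the transcriptional PABPN median to 0.018 and its PABPC median to -0.60. It turned the sign of CCND1 (0.085), CCNJ (0.00084) and CDK13 (0.018) with PABPN and of CCNK with PABPC (-0.12), none of them called. Splitting the classes, which was decided on once the data had been seen, gave a median difference of -1.09 for the cell-cycle kinases, and for the transcriptional members 0.46 with PABPN, 0.13 with PABPC and a difference of 1.19 for cyclins alone, against -0.76 with PABPC and 0.52 for kinases alone. The cause was not tested for any of these.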

Other observations

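Values are given here for some, not all, of the genes whose names resemble those of the members but fall outside the rule. Antisense RNAs to members had PABPC log2 fold changes of -2.45 ± 0.142 for CCNY-AS1 and -1.96 ± 0.292 for CDK6-AS1. CCND2-AS1 had -1.24 ± 0.311 and CCNT2-AS1 had -0.91 ± 0.183. In this order their PABPN values were 0.22, 0.05, 0.51 and 0.20. Each was called depleted with PABPC, as were 32.4% of all genes, and the share over antisense RNAs was not computed. The PABPC means of CDK6-AS1 and CCND2-AS1, 59.1 and 60.2, were close to the filter. The CDK-like kinases CDKL1, CDKL2 and CDKL3 had PABPC values of -1.34, -0.25 and -1.89, of which that of CDKL2 was not called. Proteins named for binding CDKs varied. CDK2AP1 had -0.55 with PABPN and 2.06 with PABPC, CDK5R1, an activator of CDK5, had 0.60 and 1.73, CDK5RAP2, a centrosome protein, had -0.50 and -1.74, and CDK5RAP3 had 1.25 and 0.24. CDK2AP2 had -0.20 with PABPN and 2.47 with PABPC. CDKAL1 had -0.26 and -3.34, and the pseudogene CCNYL4 had -0.21 and -2.97.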
